A study of Mus musculus with 3 samples.

Results

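Most stretches of the genome called for symmetric dimethylation at arginine 2 of histone H3 (H3R2me2s) were also called for trimethylation at lysine 4 of that histone (H3K4me3). Described here are the exceptions, 1 kb bins of the mouse genome (build mm9) that reached 15 or more H3R2me2s reads, held under 25 H3K4me3 reads, and had no bin of 25 or more H3K4me3 reads within 10 bins on either side. The members were thus chosen by their H3R2me2s and H3K4me3 reads. There were 699 such bins, called members below, of 28193 bins with 15 or more H3R2me2s reads (2.48%) and of 2285014 bins with a read in any library. Another 1285 bins met the 2 limits on reads but lay within 10 bins of an H3K4me3 bin, and these are called flanking bins. The remaining 26209 were called for H3K4me3 themselves.

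The 3 libraries came from chromatin immunoprecipitation and sequencing of RAG2-/- Abelson-transformed pro-B cells, whose strain the labels give as C57BL/7. A pro-B cell is an early stage of B-cell development. Abelson virus carries an activated kinase that lets such cells divide without end in culture, and RAG2 is needed to cut antigen receptor genes for their assembly. All 3 libraries carry the same labels of strain, genotype and culture, with no treatment named. One library was made with an antibody against H3R2me2s, one with an antibody against tails carrying both marks (H3R2me2sK4me3, the combined mark), and one with an antibody against H3K4me3. Per the labels, the submitting laboratory raised the first 2 antibodies, and the third came from Abcam.

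H3K4me3 marks the nucleosomes at the start of active genes. H3R2me2s is placed by the arginine methyltransferases PRMT5 and PRMT7, and the adaptor WDR5, a subunit of the complexes that methylate lysine 4, is known to bind it. The asymmetric form of the same methylation keeps those complexes away, so that the 2 forms of dimethylated arginine 2 have opposite relations to H3K4me3.

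The H3R2me2s library held 6923765 reads, the combined-mark library 7128852 and the H3K4me3 library 13898471. Bins with 15, 16 and 25 or more reads in that order are called enriched. Background is the mean over bins with no enriched bin within 5 kb, and it was 2.35, 1.86 and 2.98 reads per bin in the same order. Each antibody had 1 library, so no difference has a replicate check, no p-value was computed, and the intervals given are exact 95% intervals for counting error within a library. Reads amplified by PCR without molecular identifiers are not independent molecules, so these intervals are too narrow. No input library was among the samples used here, so a bias that all libraries have at a place was not taken out. No genome or annotation of mm9 was used, so that genes at the members were not named, their sequences are not shown and the pro-B label was not checked against marker genes.

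Because the rule used H3R2me2s and H3K4me3 reads, the levels of both at the members are a description. Most members sat at the limit. There were 310 members with 15 reads, 186 with 16 and 99 with 17, which together made up 85.1%, and 32 members had 20 or more. Just outside the limit, 542 bins equally far from H3K4me3 had 14 reads and 1075 had 13. The count fell smoothly across the limit, with no gap that sets the members apart from bins below it. The lowest H3R2me2s count was 15, the median 16 and the highest 70, or a median of 6.80 times background. Of all 1940665 bins far from H3K4me3, the rule took 0.0360%.

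H3K4me3 was below its calling limit at the members by construction, but it was not at background. The lowest count was 1, the median 8 and the highest 24 reads, a median of 2.69 times background. In 33 members (4.72%) H3K4me3 was at or under background, beside 1017502 of all 1940665 bins far from H3K4me3. In 207 members (29.6%) it was 12 reads or more, and the median of all far bins was 2 reads. Just inside the H3K4me3 limit, 51 members had 20 to 24 reads. Members at background for H3K4me3 were thus few, and the rest ran up to the limit.

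**Figure D1:**
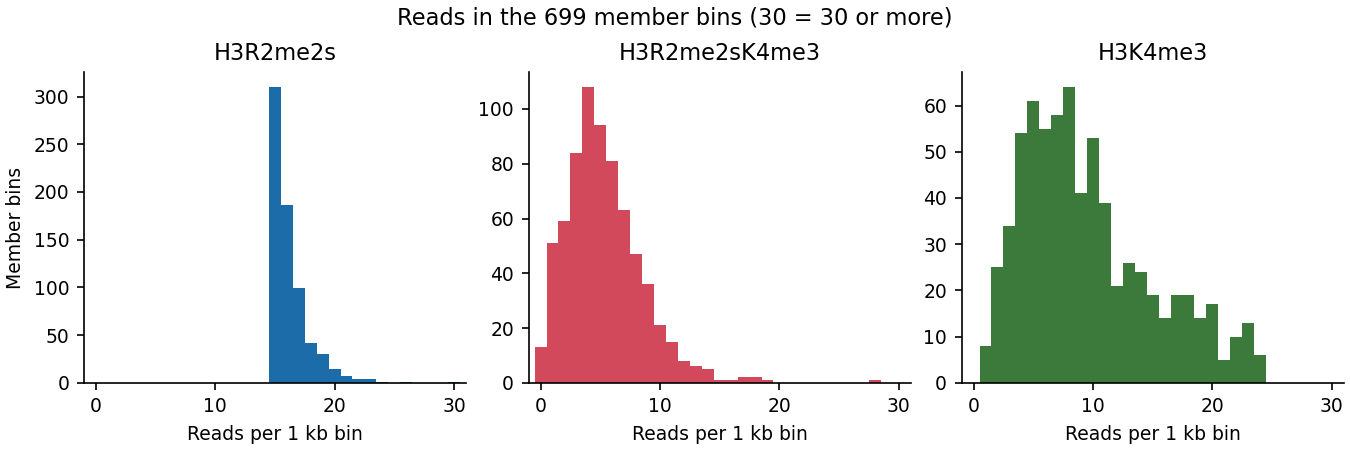
Reads per 1 kb bin in the 699 members, with 1 panel per library and the number of members on the vertical axis. H3R2me2s starts at its limit of 15, H3R2me2sK4me3 has its median at 5 reads and H3K4me3 at 8.

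The combined mark took no part in the choice of members, so it is the measure that the rule did not use. Its antibody was made against tails that also carry H3R2me2s, so its reads need not be independent of H3R2me2s reads. The combined mark was raised at the members, but seldom as far as its own calling limit. The lowest member had 0 reads, the median 5 and the highest 28, a median of 2.69 times background. In 13 of 699 members there were none, beside 474730 of all 1940665 bins far from H3K4me3. Only 7 of 699 members reached the combined-mark limit of 16 reads (1.00%, 0.404 to 2.05), where 0.00180% of all bins far from H3K4me3 did. Among flanking bins it was 25 of 1285 (1.95%, 1.26 to 2.86), and among H3R2me2s bins called for H3K4me3 it was 91.7% (91.3 to 92.0). The intervals of members and flanking bins overlap, and both lie far below that of the bins with H3K4me3. The groups were not alike in H3R2me2s, with a median of 16 reads in members and flanking bins and 29 in bins called for H3K4me3. The part of this in the shares was not tested.

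Each member was then set against its own flanks, the bins 3 to 10 kb away on either side that were not members. Combined-mark reads averaged 5.32 in the members and 3.54 in their flanks, a ratio of 1.501 (1.45 to 1.55). H3K4me3 averaged 9.63 and 5.77 reads, a ratio of 1.67 (1.63 to 1.71), and H3R2me2s averaged 16.3 and 4.72. The combined mark exceeded the flank mean in 483 members (69.1%), against 42.3% of all bins far from H3K4me3. Over bins with 8 or more flank bins, a minimum added after the values were seen, it reached 2 times the flank mean in 187 of 697 members (26.8%, 23.6 to 30.3), where 15.9% of all far bins did. H3K4me3 did so in 229 members (32.9%, 29.4 to 36.5), where 11.4% of all far bins did. With no minimum the shares of far bins were 16% and 11.6%, and the members numbered 188 and 230.

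The rise of the combined mark grew steadily with the number of H3R2me2s reads and did not begin at the calling limit. From 0 to 2, 3 to 5, 6 to 8, 9 to 11 and 12 to 14 H3R2me2s reads, and then in the members, the ratio of combined-mark reads to the flanks was 0.909, 1.04, 1.13, 1.23, 1.34 and 1.501. The ratio of H3K4me3 reads to the flanks was 0.904, 1.03, 1.13, 1.28, 1.48 and 1.67. The flanks rose along with the bins, and their combined-mark level over the same 6 classes was 0.881, 1.11, 1.37, 1.60, 1.76 and 1.90 times background. The classes are set by H3R2me2s reads and H3K4me3 is capped in every class, so the combined mark is the measure that the choice did not use.

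**Figure D2:**
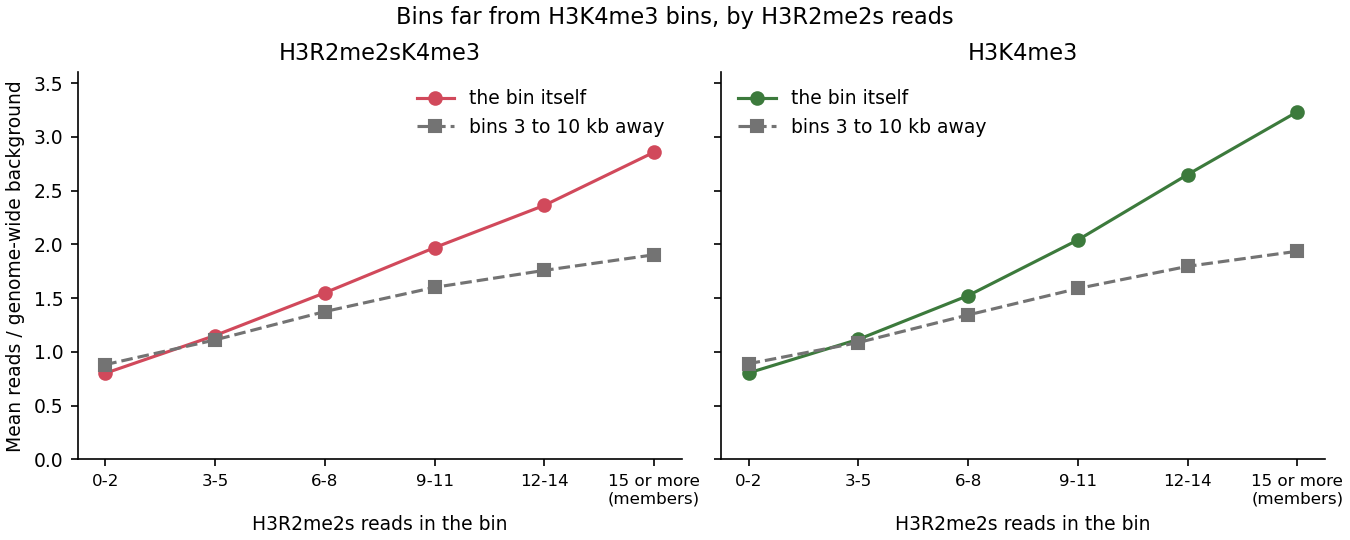
Mean reads as multiples of genome-wide background (vertical axis) for bins far from H3K4me3, in 6 classes of H3R2me2s reads (horizontal axis). Circles are the bins themselves and squares the bins 3 to 10 kb away. The 699 members reach 2.86 for the combined mark and 3.23 for H3K4me3, with flanks at 1.90 and 1.94.

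Within the members, the combined mark followed H3K4me3. In 84 members with 18 to 24 H3K4me3 reads, the combined mark was 2.11 times its flanks (1.94 to 2.29). In 123 members with 12 to 17 H3K4me3 reads it was 1.69 times (1.56 to 1.82), and in 255 with 7 to 11 it was 1.41 times (1.33 to 1.49). It was 1.28 times its flanks (1.19 to 1.38) in 170 members with 4 to 6 H3K4me3 reads and 1.27 times (1.12 to 1.44) in 67 members with 1 to 3. H3R2me2s itself was 3.79 times its flanks in the class with most H3K4me3 and 3.90 in the class with least. The value in the class with least H3K4me3 rested on 3 members from a single place on chromosome 8, described below. Without that place the combined mark there was 1.11 times its flanks (0.965 to 1.28), an interval that includes 1.

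With no minimum on flank bins, both the combined mark and H3K4me3 reached 2 times the flank mean in 103 members (14.7%), where 2.76% of all far bins did. H3K4me3 did so without the combined mark in 127 members (18.2%), beside 8.81% of far bins. The combined mark did so without H3K4me3 in 85 members (12.2%), beside 13.2% of far bins, a share near the background. Neither did in 384 (54.9%), beside 75.2% of far bins. In 25 members (3.58%) the combined mark reached 2 times the flank mean while H3K4me3 was no higher than its own, and 7.65% of far bins met the same 2 conditions. Members with a rise of the combined mark alone were thus no larger a share than among far bins. H3K4me3 was part of the rule, so the classes that rest on it are a description. Combined-mark flanks were at 1.90 times background for members and 0.994 times for far bins, and the part of this in the shares was not tested.

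**Figure D3:**
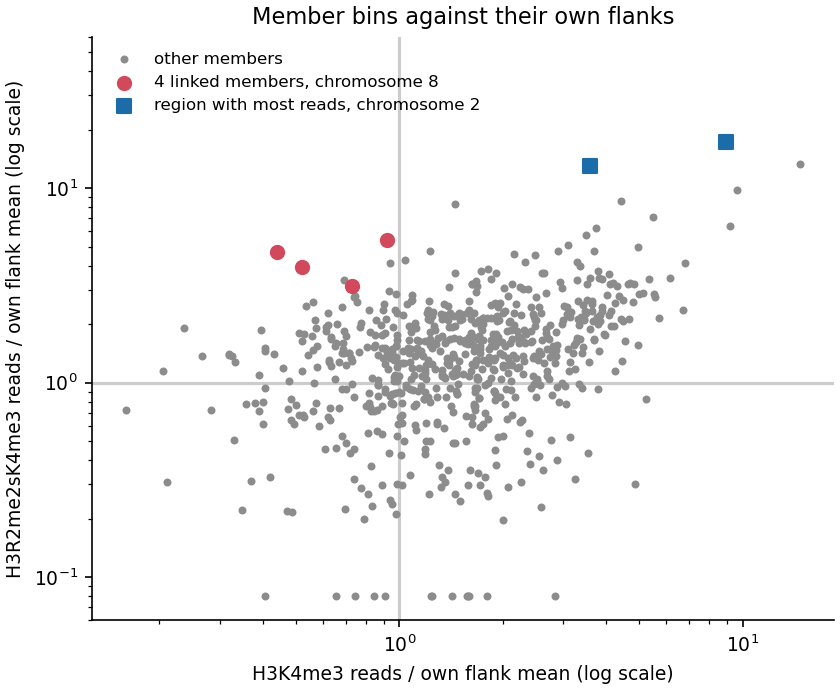
Each point is 1 of the 699 members, with H3K4me3 reads over its own flank mean on the horizontal axis and H3R2me2sK4me3 reads over its own flank mean on the vertical axis, both on log scales. Members with 0 combined-mark reads are drawn at 0.08. The 4 linked members on chromosome 8 lie left of 1 and high, and both bins of the chromosome 2 region lie high in both libraries.

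Summed over the members, the other libraries also rose where the H3R2me2s reads of a member were densest. The centre was set at the 100 bp step with most H3R2me2s reads in each member. In those 100 bp the combined mark had 476 reads over all members, 1.81 times (1.64 to 2.00) the mean of the steps 1500 to 2000 bp away. H3K4me3 had 900 reads, 2.11 times (1.96 to 2.27). In the steps 100 to 300 bp from the centre the ratios were 1.40 (1.33 to 1.48) for the combined mark and 1.51 (1.44 to 1.57) for H3K4me3. The H3R2me2s ratio at the centre, 9.08, follows from the choice of the centre.

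**Figure D4:**
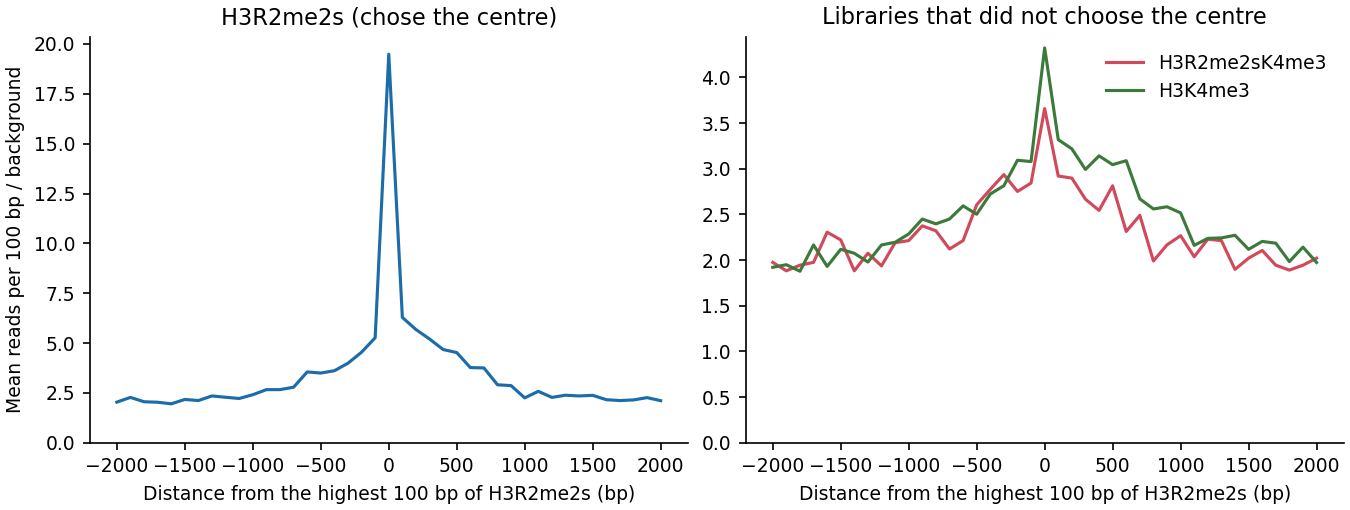
Mean reads per 100 bp as multiples of background (vertical axis) by distance from the highest 100 bp of H3R2me2s in the member (horizontal axis, bp), over 699 members. H3R2me2s reaches 19.5 at the centre it chose, the combined mark 3.66 and H3K4me3 4.32, and at 2000 bp the 3 lines are near 2 times background.

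Members were mostly single bins. Joined where no more than 1 kb apart, the 699 bins gave 679 places, of which 660 were single bins, 18 held 2 members and 1 held 3. Only 26 members (3.72%, 2.44 to 5.40) had a member right beside them, against 53 flanking bins with another flanking bin beside them (4.12%, 3.10 to 5.36) and 79.3% (78.8 to 79.8) of the H3R2me2s bins called for H3K4me3. Another member lay within 10 kb of 94 members (13.4%, 11.01 to 16.2), in 43 groups of at most 4 bins. Among flanking bins 261 had another flanking bin that close (20.3%, 18.1 to 22.6), and among the H3R2me2s bins called for H3K4me3 it was 88.0% (87.6 to 88.4). Members made up only 0.0360% of all far bins, so a bin beside a member was a member far more often than far bins were. The shares that an even spread would give were not computed. Along a chromosome the median distance to the next member was 1623 kb. H3R2me2s fell quickly away from the member, to 2.38 times background in the bins 1 kb away, and then stayed near 2 times background out to 10 kb. The combined mark was at 2.19 times background 1 kb away and 1.89 times 10 kb away, and H3K4me3 at 2.36 and 1.90 times. The fall of H3R2me2s beside a member follows from the choice of members. The combined mark, which chose nothing, was at 2.86 times background in the member and 1.94 times 2 kb away.

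Of the reads with the same position and strand, all but 1 were counted as repeated. Repeats were 9.10% (8.58 to 9.64) of the H3R2me2s reads in members, 8.86% (8.51 to 9.23) in flanking bins, 6.48% in H3R2me2s bins called for H3K4me3, 5.12% in all far bins and 5.22% in the whole library. Repeats count toward the total on which the members were selected, so the H3R2me2s value is a description. The combined mark, which chose nothing, had 1.45% repeated reads in members (1.09 to 1.89) and 1.70% in all far bins. H3K4me3 had 1.77% (1.47 to 2.11) and 1.47%. In 157 members no H3R2me2s read repeated a position, and in 36 members 4 or more did. The highest number of H3R2me2s reads at one position and strand was 4, and 55 members had 3 or more at one place. No member was thus a stack of copies of 1 fragment, yet 366 (52.4%) held 15 distinct positions or more and the other members passed the limit only with repeats.

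Reads came evenly from both strands. The plus strand gave 49.6% of the H3R2me2s reads in members (48.7 to 50.5). The share lay between 20% and 80% in 692 members, and no member had reads from 1 strand only.

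The surroundings of the members were raised in every library. Flank means were above genome-wide background in 673 members for H3R2me2s (96.3%), in 676 for the combined mark (96.7%) and in 663 for H3K4me3 (94.8%). Among all far bins the shares were 38.5%, 39.3% and 35.1% in the same order. The mean flank was 2.00, 1.90 and 1.94 times background in the same order, against 0.994, 0.994 and 0.990 for all far bins. At a wider scale, windows of 100 kb were ranked into 5 equal classes by their background. By the combined mark, 76.1% of members (72.8 to 79.3) fell in the highest class, which held 15.2% of all far bins. By H3K4me3 it was 72.0% (68.5 to 75.3), beside 14.6% of far bins. The median window level of the combined mark was 1.66 times background for members and 0.866 times for far bins.

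Members also lay closer to H3K4me3 bins than all far bins did. The median distance to the nearest H3K4me3 bin was 24 kb for members and 155 kb for all far bins. Of the members, 291 (41.6%, 37.9 to 45.4) were within 20 bins of one, against 9.58% of far bins. Only 45 members (6.44%) were more than 100 bins away, against 59.4% of far bins. Bins with 12 to 14 H3R2me2s reads, under the limit, were alike in this, with a median of 26 kb and 36.6% within 20 bins. The ends of the chromosomes held no excess, with 10 members (1.43%, 0.688 to 2.62) in the first or last 1 Mb with reads, against 1.35% of far bins.

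Among the chromosomes, members were sparse on the X. It held 2 members in 103812 far bins, or 0.193 per 10000, while the 19 numbered chromosomes held between 2.66 on chromosome 15 and 6.92 on chromosome 11, with a median of 3.58. Background on the X, as a fraction of the genome-wide level, was 0.524 in the H3R2me2s library, 0.544 in the combined-mark library and 0.548 in the H3K4me3 library. Chromosome 11, with most members per bin, had the highest background of the numbered chromosomes, at 1.17, 1.14 and 1.10 times the genome-wide level. The Y had 0 members in 1177 far bins, which allows up to 25.5 per 10000, with background at 0.389, 0.399 and 0.428 times the genome-wide level in the same order of libraries. The part of background in these rates was not tested.

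The strongest place was on chromosome 2, 22444001 to 22446000, where all 3 libraries rose. Its first bin had 70 H3R2me2s reads, 28 of the combined mark and 20 of H3K4me3, over flank means of 2.00, 1.62 and 2.23 reads. Its second bin had 24, 18 and 8 reads. Of its 94 H3R2me2s reads, 86 had distinct positions and 48 were on the plus strand. Several bins 3 to 10 kb away held 0 reads in all 3 libraries and were not part of the flank means. A bias shared by the libraries at this place was not tested. The nearest H3K4me3 bin lay 132 kb away. The H3K4me3 rise here, 6.28 times the flanks over both bins, was below the calling limit.

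On chromosome 4, 79649001 to 79651000 lay 2853 kb from any H3K4me3 bin. It had 38 H3R2me2s reads, 19 of the combined mark and 16 of H3K4me3 over its 2 bins, which was 12.9, 7.79 and 4.97 times low flank means of 1.47, 1.22 and 1.61 reads. On chromosome 2, 181665001 to 181666000 had 16, 19 and 21 reads, or 7.47, 13.3 and 14.7 times its flanks. Those flank means were below background in every library, at 2.14, 1.43 and 1.43 reads, so these ratios rest on few flank reads. Of its 16 H3R2me2s reads, 4 were on the plus strand. As on chromosome 2 at 22444001, the 3 libraries rose together at these places. Chromosome 11, 45255001 to 45256000, had 16, 18 and 24 reads and was the other single bin called for the combined mark in which H3K4me3 rose too, to 3.37 times its flanks.

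Of the 25 members in which the combined mark reached 2 times its flank mean and H3K4me3 was no higher than its own, 4 lay in 1 place on chromosome 8. It was the larger, by reads, of 2 groups of 4 members, spanning 108760001 to 108776000. The bin at 108760001 had 18 H3R2me2s reads, 17 of the combined mark and 4 of H3K4me3. At 108761001 the counts were 19, 12 and 3, at 108765001 they were 18, 17 and 2, and at 108775001 they were 21, 16 and 1. H3K4me3 was at or below its own flank mean in all 4, from 0.44 to 0.92 times, while the combined mark was 3.16 to 5.43 times its flank mean. Of the 7 members called for the combined mark, 3 were here and 2 were the chromosome 2 bins at 22444001.

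The reads of this place fell in short, separate stretches. Over the window from 108740001 to 108796000, chosen after its values were seen, H3R2me2s reads were joined where they started no more than 40 bp apart, and stretches with 4 or more reads were kept. There were 13 stretches of 73 to 182 bp, with a median of 120 bp, covering 1585 bp or 2.83% of the window. They held 106 of 278 H3R2me2s reads by choice. Of the combined-mark reads, which did not set the stretches, 86 of 227 fell there (37.9%, 31.6 to 44.5), a density 15.8 times (11.95 to 20.8) that of the rest of the window. Of the H3K4me3 reads, 7 of 190 did (3.68%, 1.49 to 7.44), a density 0.992 times (0.393 to 2.09) that of the rest. The place was singled out with its high combined mark and low H3K4me3 known, so both densities are a description. For these densities, here and below, the length of a stretch included the positions just before it from which a read could overlap it.

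Some edges of these stretches also recurred. Built in the same way from the combined-mark reads, stretches overlapped 10 of the 13, while none built from H3K4me3 reads did. In 6 of those 10 the 2 libraries' starts lay within 5 bp of each other, and in 3 the ends did. At 108758746 to 108758856 there were 6 H3R2me2s reads, 7 of the combined mark and 0 of H3K4me3. At 108765086 to 108765215 there were 10, 14 and 0 reads, and at 108775378 to 108775540 there were 12, 11 and 1. The combined-mark stretches at these 3 places began 2, 5 and 5 bp inside the H3R2me2s ones. The layout was looked for in 1 other window, around the chromosome 2 place at 22444001 described above. There, in the 12 kb from 22439001 to 22451000, 5 stretches built in the same way covered 719 bp. They held 36 of 57 combined-mark reads (63.2%, 49.3 to 75.6), at 20.9 times (11.9 to 37.7) the density of the rest, and 4 of them were overlapped by combined-mark stretches. Starts of the 2 libraries lay within 5 bp of each other in 1 of those 4, and ends in 1. Unlike on chromosome 8, the H3K4me3 reads lay there too, 23 of 43 (53.5%, 37.7 to 68.8), at 14.03 times (7.37 to 26.9) the density of the rest. Stretches built from H3K4me3 reads overlapped 2 of the 5. Along 108751218 to 108751337 on chromosome 8 there were 5 H3R2me2s reads and 0 of the combined mark.

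**Figure D5:**
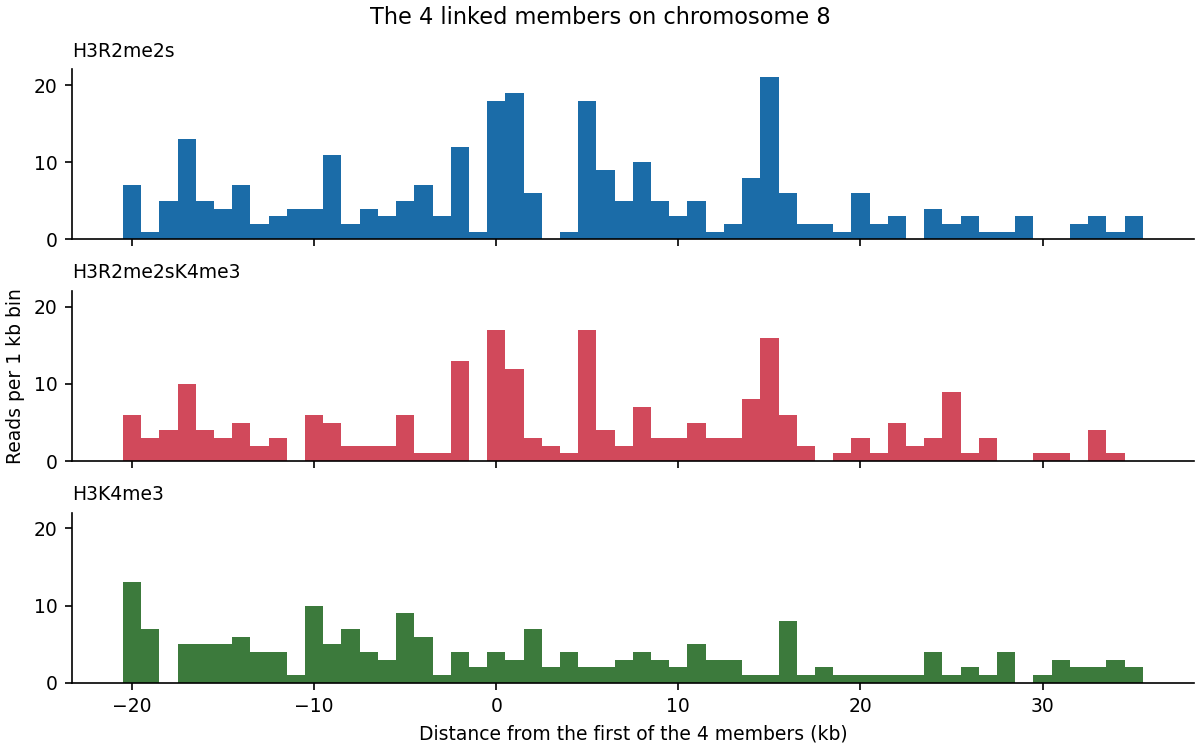
Reads per 1 kb bin (vertical axis, the same in all panels) by distance from the first of the 4 linked members on chromosome 8 (horizontal axis, kb). H3R2me2s and H3R2me2sK4me3 share sharp bars at 0, 1, 5 and 15 kb, where H3K4me3 has 4, 3, 2 and 1 reads.

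The other joined places differed in how far each library stood above its flanks. Chromosome 6, 120660001 to 120664000, held the 3 joined members and had 48 H3R2me2s, 17 combined-mark and 25 H3K4me3 reads, yet these were 2.05, 1.26 and 1.08 times flanks that were themselves high. Chromosome 3, 25443001 to 25446000, had flank means of 9.33, 7.53 and 14.2 reads, and its 2 members were 1.93, 1.26 and 0.91 times those. Chromosome 7, 121240001 to 121242000, had 33 H3R2me2s reads, 4 of the combined mark and 14 of H3K4me3, with the combined mark at 0.48 times its flanks. Chromosome 5, 96564001 to 96566000, had 37, 12 and 9 reads, with H3K4me3 at 0.82 times its flanks and the combined mark at 2.41 times. Among the 10 joined places with most H3R2me2s reads were also chromosome 16, 33732001 to 33734000, with 36, 18 and 36 reads, or 4.20, 2.38 and 3.87 times its flanks. Chromosome 2, 27087001 to 27089000, had 35, 17 and 26 reads, or 4.79, 3.20 and 3.15 times. Chromosome 1, 88730001 to 88733000, had 34, 10 and 12 reads, or 5.88, 1.79 and 1.71 times. At these 3 places the combined mark and H3K4me3 both stood above their flanks.

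Among single bins whose flank mean of H3R2me2s was under 2 times background, those with most distinct positions were led by chromosome 2, 28257001 to 28258000. It had 26 H3R2me2s reads at 23 distinct positions, 9 combined-mark and 11 H3K4me3 reads, or 9.04, 2.88 and 2.67 times its flanks. Chromosome 14, 79963001 to 79964000, had 23, 7 and 6 reads, and H3K4me3 was at 0.91 times its flanks. Chromosome 14, 8986001 to 8987000, had 20, 4 and 17 reads, with the combined mark at 1.28 and H3K4me3 at 3.58 times its flanks. On chromosome 11, 75185001 to 75186000 had 23, 9 and 24 reads and 57686001 to 57687000 had 21, 11 and 15. The 5 thus differed in whether H3K4me3 rose with H3R2me2s, while the combined mark lay between 1.28 and 3.67 times the flanks.

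The number of members depended on the rule. It was 376 with 1 read kept per position and strand, 408 with 20 bins free of H3K4me3 on either side, 238 with at least 4 times the flank mean, 216 with an H3K4me3 limit of 12 reads and 32 with an H3R2me2s limit of 20 reads. In the 216 members with the stricter H3K4me3 limit, the combined mark was 1.43 times its flanks (1.34 to 1.53).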

How the data were processed

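In the deposited files every line is 1 read of 39 mapped bases, and the authors applied no scaling that the values show, so reads per bin are raw counts. Per the submitters' processing notes the build was mm9. Aligner and read filters are not given in the sources used here. Per the labels' protocols, libraries had 15 PCR cycles and gel-selected fragments of 100 to 500 bp.

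Read starts, shifted by 75 bp along the read, were counted per 1 kb bin. Flanks were the bins 3 to 10 bins away with a read in any library and not members. Intervals are 95%, exact Clopper-Pearson for shares and exact binomial for ratios. Windows of 100 kb needed 20 background bins. Places were named by rule: the 10 joined places with most H3R2me2s reads, the 5 with most bins, those with 16 combined-mark reads or more, and the 5 single bins with most distinct positions and a flank mean under 2 times background. The members, comparisons and lists were chosen with earlier results of these data known. The minimum of 8 flank bins, the 2 places left out in turn, and the stretches on chromosomes 8 and 2, were chosen after their values were seen. The rule was tested on simulated data. Python 3.11.15, NumPy 2.4.6, pandas 2.3.3 and SciPy 1.17.1 were used.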

Additional observations from a re-analysis of the deposited data

How the results depend on the processing

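No paired analysis was possible because the labels number no replicates and every group is a single library, which also means that none could be omitted. Of 87 values recomputed under 14 settings, 52 stayed within their interval (or 1.5 times, for the number of members), 34 moved more and 1 reversed. Leaving out the chromosome 8 group or the chromosome 2 region at 22444001, and joining stretches at 20 or 80 bp, were chosen after seeing the data, as were all settings for the profile. With 5 bins on either side the flanks reach into H3K4me3 chromatin by construction. The H3K4me3 ratio to the flanks was then 0.944, the combined-mark ratio 1.00 and the combined-mark flank level 2.94 times background. The remaining values that moved are given by setting. With 1 read per position and strand there were 376 members, 9.04% had another within 10 kb, and the ratios were 1.59 for the combined mark and 1.83 for H3K4me3. With a limit of 20 H3R2me2s reads there were 32 members, with 6.25%, 2.52 and 2.14 in the same order, 8.12% repeated reads, a flank level of 1.76 and a profile ratio of 4.30; these 32 include both chromosome 2 bins and 1 of chromosome 8. With an H3K4me3 limit of 12 reads there were 216 members, with 7.41%, 1.43 and 1.40, 10.6% repeated reads and a flank level of 1.74. With 20 bins on either side there were 408 members, ratios of 1.57 and 1.77 and a flank level of 1.81. With 4 times the flank mean there were 238 members, with 5.88%, 1.85 and 2.20, a flank level of 1.53 and a profile ratio of 2.21. With bins offset by 500 bp the H3K4me3 ratio was 1.73 and the flank level 1.86. With reads not moved the H3K4me3 ratio was 1.72, and on numbered chromosomes alone the flank level was 1.86. The cause of these moves was not tested. The combined mark stayed above its flanks in every setting except 5 bins on either side. Combined-mark density in the chromosome 8 stretches was 20.6 times the rest with stretches joined at 20 bp and 11.4 times at 80 bp, and H3K4me3 density was 1.63 and 1.68 times. At 15 reads a member's own count has a wide counting error, so single members near the limit are not firm.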
